A study of Homo sapiens with 3 samples.

Results

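Expression of 40 glycolysis and hypoxia response genes was examined in A549 cells, a human lung adenocarcinoma line, after transfection of either strand of pre-*miR-139*. The members were the probes whose RefSeq accession belonged to one of the 40 gene symbols, and 39 of the 40 genes were found in this way among 22439 RefSeq genes on the arrays. The cells were grown in normal RPMI medium and received transfection reagent only (mock), *miR-139-5p* or *miR-139-3p*, the miRNAs at 10 nM. RNA of each of these 3 groups was hybridised to 1 single-colour array, so no value has a replicate and no test between groups could be made. The mock and *miR-139-5p* RNA were on slide 1 and the *miR-139-3p* RNA was on slide 2, so slide and transfection cannot be told apart for *miR-139-3p*. The labels name no low-oxygen treatment in any group. The study asked which genes are lowered by the passenger strand, *miR-139-3p*, and both strands were set against the same mock array.

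Glycolysis splits glucose into pyruvate in the cytosol and yields ATP without oxygen. When oxygen is short, prolyl and asparaginyl hydroxylases lose activity, HIF alpha subunits escape degradation, and the HIF complex raises transcription of glucose transporters, most glycolytic enzymes, lactate export proteins and secreted factors such as VEGFA. Many tumour cells keep these genes active in normal oxygen. A mature miRNA pairs with target transcripts mainly through its seed, bases 2 to 8 from the 5′ end, and thereby lowers their stability or translation.

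Both strands come from the same hairpin on chromosome 11, minus strand, in RefSeq's GRCh38.p14 annotation. *miR-139-3p* lies at chr11:72615066-72615088 and *miR-139-5p* at chr11:72615102-72615124. They are shown because they are the strands that were transfected. The seeds, in capitals, differ between them.
hsa-miR-139-3p: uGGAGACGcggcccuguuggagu
hsa-miR-139-5p: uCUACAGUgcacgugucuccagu

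With *miR-139-3p*, the members were lower on balance, and *SLC2A1*, the main basal glucose transporter of many cells, stood far below the other measured members. Of the 37 members with a value, 21 were lower than mock by more than 0.5 on the log2 scale, the threshold used throughout, and 6 were higher. The share lower was 56.8%, where 27.9% of all 15572 RefSeq genes with a value were lower, and the share higher was 16.2%, where 26.5% of all genes were higher. The median log2 fold change of the members was -0.59, and that of all genes was -0.05. With *miR-139-5p*, 4 of 38 members were lower and 9 were higher, with a median of 0.15 where that of all genes was -0.01. The share lower was 10.5% beside 12.3% of all genes, and the share higher was 23.7% beside 10.7% of all genes. With normexp background correction, which adds an offset to every signal and so narrows differences between dim signals, 2 members were higher, beside 3.47% of all genes. In bulk RNA, less transcript in every cell and fewer cells holding it cannot be told apart.

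Genes were also grouped by the brightness of their probes, which depends on the probe as well as the transcript. Among genes at or above the 75th percentile of mean level, 36.4% were lower and 11.0% were higher, with a median of -0.29. Of the 19 members among them, 12 were lower and 1 was higher, with a median of -0.59. For *miR-139-5p*, 7.08% of such genes were lower and 6.68% were higher, and of 20 members among them 3 were lower and 1 was higher. When the *miR-139-3p* array was set against the *miR-139-5p* array, 19 of 37 members were lower and 6 were higher, where 27.9% of all genes were lower and 26.4% were higher.

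**Figure D1:**
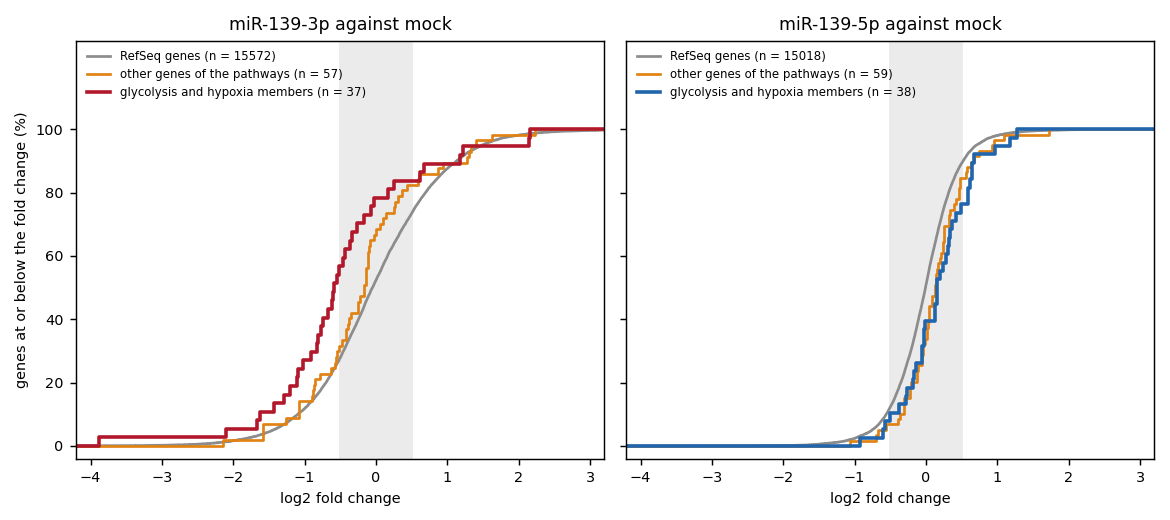
Cumulative share of genes in percent against the log2 fold change for *miR-139-3p* (left) and *miR-139-5p* (right) against mock, for all RefSeq genes, the other genes of the pathways and the members; grey marks changes within 0.5. On the left the members' curve reaches its midpoint at -0.59, to the left of both other curves, and on the right it reaches it at 0.15.

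As a measure of error, the fold changes of different probes of 1 gene had a median SD of 0.28 for *miR-139-3p* (3684 genes) and 0.15 for *miR-139-5p* (3743 genes). Among 9 members with 2 usable probes in each comparison, the median SD was 0.12 and 0.08. These values cover probe differences within 1 RNA sample and leave out any spread between cultures. On each array, 48.1% to 53.1% of the 60901 spots were well above background and 0 were saturated. The epithelial and A549 marker list was well above background at 12 of 12 probes on every array, while markers of blood, endothelium and fibroblasts were well above background at 4 or 5 of 15 probes, with summed processed signals of 98.4 to 149. The summed signal of the epithelial list was 264723 in mock, 225285 after *miR-139-5p* and 122834 after *miR-139-3p*, before scaling and carried by its brightest probes. After scaling, the 7 genes of the list went both ways with *miR-139-3p*, from -1.43 for *AKR1B10* to 0.97 for *EPCAM*.

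**Figure D2:**
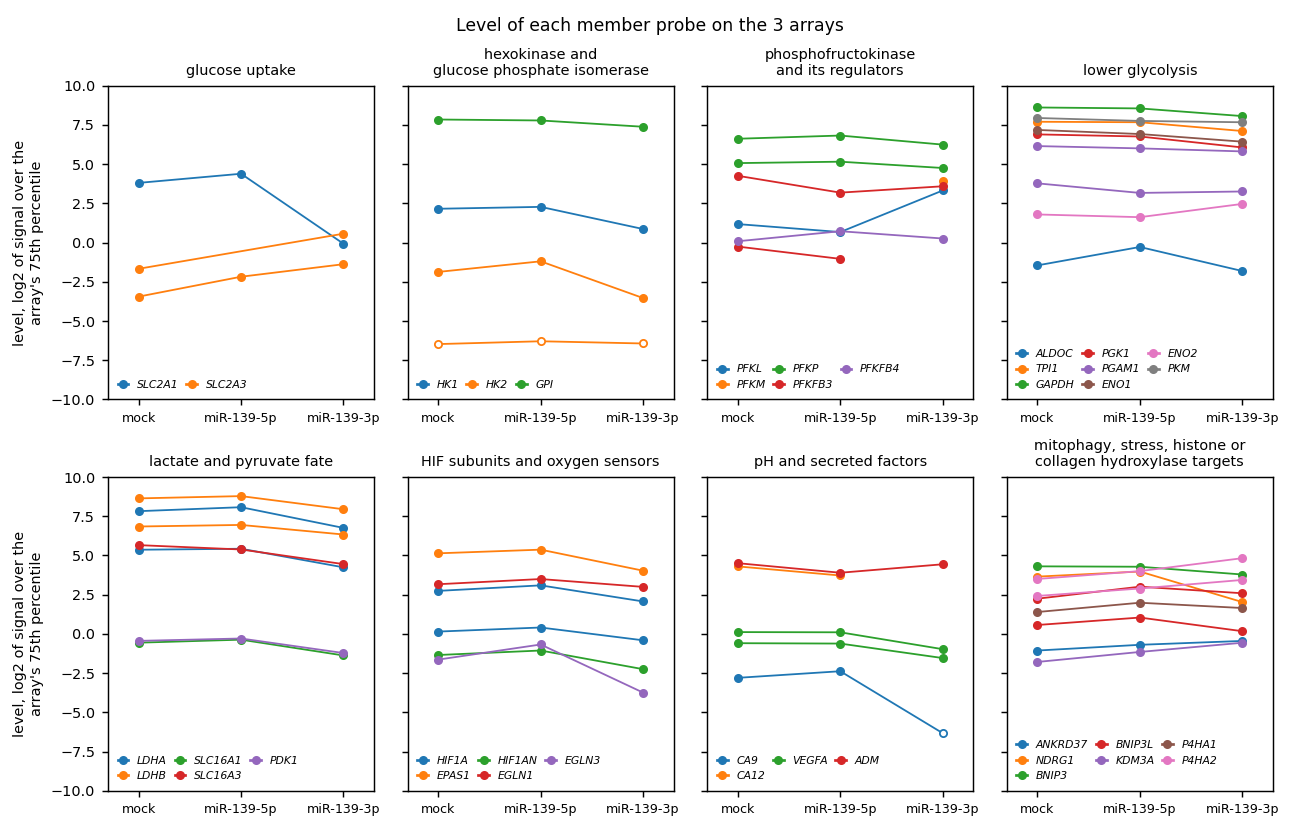
Level of every member probe, as log2 of the processed signal over the 75th percentile of its array, on the arrays of mock, then *miR-139-5p*, then *miR-139-3p* (1 array each), with 1 panel per role; open circles are not well above background and flagged spots have no point. *SLC2A1* and *CA9* drop steeply on the last array, and levels of different probes are not comparable with each other.

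Glucose enters cells through facilitative transporters, and the 2 transporters among the members went in opposite directions with *miR-139-3p*. The *SLC2A1* probe gave a processed signal of 1308 in mock, 1862 after *miR-139-5p* and 77.0 after *miR-139-3p*. Only the *miR-139-3p* array was low for it. After scaling, *SLC2A1* with *miR-139-3p* was at 6.80% of mock, a 14.7-fold difference and a log2 fold change of -3.88. It had the lowest value of the 36 members measured on both arrays, and *CA9*, which has only a bound there, cannot be placed against it. With *miR-139-5p* its log2 fold change was 0.58. The value rests on 1 spot of 1 probe on each array. For *SLC2A3*, the high-affinity transporter best known from neurons, one probe gave 8.595, 19.7 and 31.2 in mock, after *miR-139-5p* and after *miR-139-3p*, and a brighter probe gave 29.4 in mock and 120 with *miR-139-3p*. Mock was the lowest array for both probes. The log2 fold changes were 2.15 with *miR-139-3p* (SD 0.12, 2 probes) and 1.27 with *miR-139-5p* (1 probe), since the brighter probe carried an outlier flag on the *miR-139-5p* array. With normexp the second value was 0.26.

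Hexokinases trap glucose in the cell by phosphorylation. *HK1*, the broadly expressed form, gave 417 in mock, 431 after *miR-139-5p* and 147 after *miR-139-3p*. *HK2*, the inducible form, gave 25.6, 38.9 and 6.98 in the same order at its brighter probe. The other *HK2* probe was not well above background on any array. Both genes were thus low on the *miR-139-3p* array alone, with log2 fold changes of -1.29 for *HK1* and -1.67 for *HK2*. The *HK2* calls rest on dim signals, and with normexp its log2 fold changes were -0.23 after *miR-139-3p* and 0.19 after *miR-139-5p*, both within the threshold. With *miR-139-5p* they were 0.12 for *HK1* and 0.68 for *HK2*. *GPI*, which turns glucose 6-phosphate into fructose 6-phosphate, stayed within 0.5 of mock at -0.46 and -0.06.

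Phosphofructokinase commits the sugar to glycolysis, and the direction differed between its subunits. *PFKL*, the liver-type subunit, gave 212 in mock, 141 after *miR-139-5p* and 809 after *miR-139-3p*. It was therefore high on the *miR-139-3p* array, at a log2 fold change of 2.14 or 4.41-fold, and at -0.51 with *miR-139-5p*, a call that ended with spike-in scaling (-0.48), with normexp (-0.38) and relative to *GAPDH* (-0.45). *PFKP*, the platelet-type subunit, was at -0.34 and 0.15. *PFKM*, the muscle-type subunit, had no value because its only spot carried a background flag on both the mock array and the *miR-139-5p* array. With flagged spots kept it was at -0.01 after *miR-139-3p* and 0.15 after *miR-139-5p*.

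The bifunctional PFKFB enzymes set the level of fructose 2,6-bisphosphate, an activator of phosphofructokinase. *PFKFB3* gave 1789 in mock, 808 after *miR-139-5p* and 975 after *miR-139-3p* at its brighter probe. Mock was the highest array, and the log2 fold changes were -0.67 after *miR-139-3p* and -0.93 after *miR-139-5p* (SD 0.21, 2 probes). Among the 37 members with a value in both comparisons, it was the only 1 past the threshold downward in both. With quantile normalization, however, its value for *miR-139-3p* was -0.47. *PFKFB4* gave 99.3, 147 and 97.0 in the same order. Only the *miR-139-5p* array was high for it, with log2 fold changes of 0.64 after *miR-139-5p* (0.41 with normexp) and 0.17 after *miR-139-3p*.

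In lower glycolysis, 8 of 9 genes had a value, since the accession of the *ALDOA* probe had no match. With *miR-139-3p*, 4 were lower (27.9% of all genes and 36.4% of the bright genes) and 1 was higher (26.5% and 11.0%). With *miR-139-5p*, 0 were lower (12.3% of all genes) and 1 was higher (10.7%). *GAPDH*, which oxidises glyceraldehyde 3-phosphate, gave 36635 in mock, 33389 after *miR-139-5p* and 21677 after *miR-139-3p*, each the mean of up to 10 spots. The SD of log2 signal between the spots was 0.07, 0.05 and 0.03. *GAPDH* was thus lowest on the *miR-139-3p* array, at a log2 fold change of -0.55 (68.4% of mock), and at -0.06 with *miR-139-5p*. *PGK1*, the first ATP-yielding enzyme of the pathway, gave 11150.5, 9657 and 5423, also over up to 10 spots, and its log2 fold changes were -0.83 and -0.13 for *miR-139-3p* and *miR-139-5p*.

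*ENO1* and *ENO2* encode enolases, which make phosphoenolpyruvate. *ENO1* gave 13573 in mock, 10765 after *miR-139-5p* and 6996 after *miR-139-3p*. *ENO2*, the neuronal form, gave 324, 273 and 447 in the same order. The first was lowest and the second highest on the *miR-139-3p* array, with log2 fold changes of -0.75 and 0.67. The value of *ENO2* was 0.46 with spike-in scaling. With *miR-139-5p*, both stayed within 0.5 of mock, at -0.26 and -0.17. *TPI1*, which interconverts the triose phosphates, gave 19489.7, 18125 and 11204 in the same order. Its log2 fold changes were -0.59 after *miR-139-3p* (-0.45 with the 75th percentile over detected probes) and -0.03 with *miR-139-5p*. *ALDOC*, the brain-type aldolase, gave 34.2 in mock, 73.2 after *miR-139-5p* and 23.1 after *miR-139-3p*. It was high on the *miR-139-5p* array alone, at a log2 fold change of 1.17, and it was at -0.36 with *miR-139-3p*. *PGAM1* and *PKM*, which act on either side of enolase, stayed within 0.5 of mock in both comparisons, with log2 fold changes from -0.43 to -0.19. The 2 probes of *PGAM1* differed, at -0.34 and -0.52 with *miR-139-3p* and at -0.15 and -0.61 with *miR-139-5p*, so its dimmer probe was past the threshold.

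Pyruvate is reduced to lactate and exported, or is oxidised in mitochondria, and all 5 members of this step were lower with *miR-139-3p*, as were 27.9% of all genes. Relative to *GAPDH*, 3 of the 5 were within the threshold (*LDHB* at -0.05, *SLC16A1* at -0.27 and *PDK1* at -0.23). *LDHA*, the lactate dehydrogenase subunit that favours lactate, gave 21177 in mock, 23984 after *miR-139-5p* and 8750 after *miR-139-3p* at its brighter probe. The other *LDHA* probe gave 3855, 3826 and 1532.5 in the same order, so both probes were lowest on the *miR-139-3p* array. The log2 fold change was -1.09 (SD 0.04, 2 probes). *LDHB*, the subunit that favours pyruvate, gave 37276, 39156 and 19954 at its brighter probe, and its log2 fold change was -0.60 (SD 0.13, 2 probes).

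The lactate exporter *SLC16A3* gave 4726 in mock, 3703 after *miR-139-5p* and 1767 after *miR-139-3p*. *SLC16A1*, a monocarboxylate transporter that carries lactate both ways, gave 63.4, 68.8 and 31.2. Their log2 fold changes with *miR-139-3p* were -1.21 and -0.81. *PDK1*, which switches off pyruvate dehydrogenase, gave 68.7, 72.5 and 34.8 in the same order and was at -0.77. With normexp, *SLC16A1* was at -0.36 and *PDK1* at -0.40, within the threshold, and with the 75th percentile over detected probes *LDHB* was at -0.46. With *miR-139-5p*, these 5 genes all stayed within 0.5 of mock, between -0.28 and 0.19.

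Of the HIF subunits and oxygen sensors, 4 of 5 were lower with *miR-139-3p* (27.9% of all genes) and 0 were higher (26.5%). With *miR-139-5p*, 0 were lower (12.3% of all genes) and 1 was higher (10.7%). *HIF1A*, the widely expressed alpha subunit, gave 626 in mock, 759 after *miR-139-5p* and 340 after *miR-139-3p* (means of up to 10 spots). Its log2 fold change was -0.62 (SD 0.08, 2 probes). *EPAS1*, which encodes HIF-2 alpha, gave 3291, 3676 and 1321 in the same order and was at -1.11. Both alpha subunits were lowest on the *miR-139-3p* array and highest on the *miR-139-5p* array. With *miR-139-5p* their log2 fold changes were 0.31 and 0.23, within the threshold. The call of *HIF1A* ended with normexp (-0.49), with the 75th percentile over detected probes (-0.48) and relative to *GAPDH* (-0.07).

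*HIF1AN*, the asparaginyl hydroxylase that blocks HIF coactivators, gave 36.8 in mock, 42.6 after *miR-139-5p* and 17.03 after *miR-139-3p*. Its log2 fold change after *miR-139-3p* was -0.90 (-0.21 with normexp and -0.36 relative to *GAPDH*). *EGLN3*, a prolyl hydroxylase and itself a HIF target, gave 30.0, 55.6 and 6.05. It was at -2.10 with *miR-139-3p* and at 0.96 with *miR-139-5p*. The arrays thus spanned a wide range for *EGLN3*, with mock in between. These signals are dim, and with normexp both calls of *EGLN3* ended, at -0.38 after *miR-139-3p* and 0.38 after *miR-139-5p*. *EGLN1*, the main prolyl hydroxylase of HIF in normal oxygen, stayed at -0.17 and 0.33.

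The members that act on pH or outside the cell were mixed. *CA9*, a cell surface carbonic anhydrase and a classical HIF-1 target, gave 13.4 in mock, 17.1 after *miR-139-5p* and 1.01 after *miR-139-3p*, where it was not well above background. It was at least 2.69-fold lower than mock, on the log2 scale a bound of -1.43, against the lowest level among probes well above background on that array. With normexp the bound was -0.19, within the threshold. *CA12*, a related anhydrase, gave 1845 in mock and 1173 with *miR-139-5p*, a log2 fold change of -0.58. Its spot on the *miR-139-3p* array was flagged for its local background, and with that spot kept the signal was 344 and the log2 fold change -2.22.

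*VEGFA*, the main angiogenic growth factor, gave 101.3 in mock, 95.4 after *miR-139-5p* and 41.2 after *miR-139-3p* at its brighter probe. It was low on the *miR-139-3p* array alone, at -1.02 (SD 0.10, 2 probes), and at -0.02 with *miR-139-5p*. With normexp its value for *miR-139-3p* was -0.48. *ADM*, the vasodilator peptide adrenomedullin, gave 2127, 1325 and 1754 over up to 10 spots. It was lowest on the *miR-139-5p* array, with log2 fold changes of -0.61 after *miR-139-5p* and -0.07 after *miR-139-3p*.

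Among the mitophagy, stress and hydroxylase targets, *miR-139-3p* left 2 of 7 lower and 3 higher, while *miR-139-5p* left 0 lower and 3 higher. For *miR-139-3p* the share lower was close to the 27.9% of all genes. The share higher was above that of all genes after both strands (26.5% for *miR-139-3p*, 10.7% for *miR-139-5p*). Beside the 0 lower after *miR-139-5p*, the share of all genes was 12.3%. *NDRG1*, a stress and hypoxia response gene, gave 1175 in mock, 1397 after *miR-139-5p* and 331 after *miR-139-3p*, a log2 fold change of -1.62 after *miR-139-3p*. *BNIP3*, a mitophagy receptor, gave 1851, 1728 and 1117 and was at -0.52, which came within the threshold under 5 alternatives. Both were lowest on the *miR-139-3p* array. *BNIP3L*, a related receptor, gave 443, 716 and 488 at one probe and 138.7, 183 and 91.2 at the other. The probes disagreed in sign for *miR-139-3p*, at 0.35 and -0.40, while both were above 0 with *miR-139-5p*, at a mean of 0.62 (0.49 with normexp).

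*KDM3A*, a HIF-induced histone demethylase, gave 27.1 in mock, 40.0 after *miR-139-5p* and 54.8 after *miR-139-3p*. Mock was the lowest array, and the log2 fold changes were 1.22 and 0.64 for *miR-139-3p* and *miR-139-5p*, the second being 0.28 with normexp. *P4HA1* and *P4HA2* encode alpha subunits of the collagen prolyl hydroxylase. *P4HA1* gave 246, 352 and 254 in mock, after *miR-139-5p* and after *miR-139-3p*. *P4HA2* gave 1059, 1424 and 2297 at its brighter probe in the same order. *P4HA1* was highest on the *miR-139-5p* array (0.59, or 0.47 with normexp, beside 0.25 with *miR-139-3p*) and *P4HA2* on the *miR-139-3p* array (1.17 with an SD of 0.22 over 2 probes, beside 0.49 with *miR-139-5p*). *ANKRD37*, an ankyrin repeat gene known as a HIF-1 target, gave 44.8, 54.9 and 59.3, and was at 0.61 after *miR-139-3p* and 0.37 after *miR-139-5p*. The first was 0.40 with spike-in scaling and 0.32 with normexp.

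**Figure D3:**
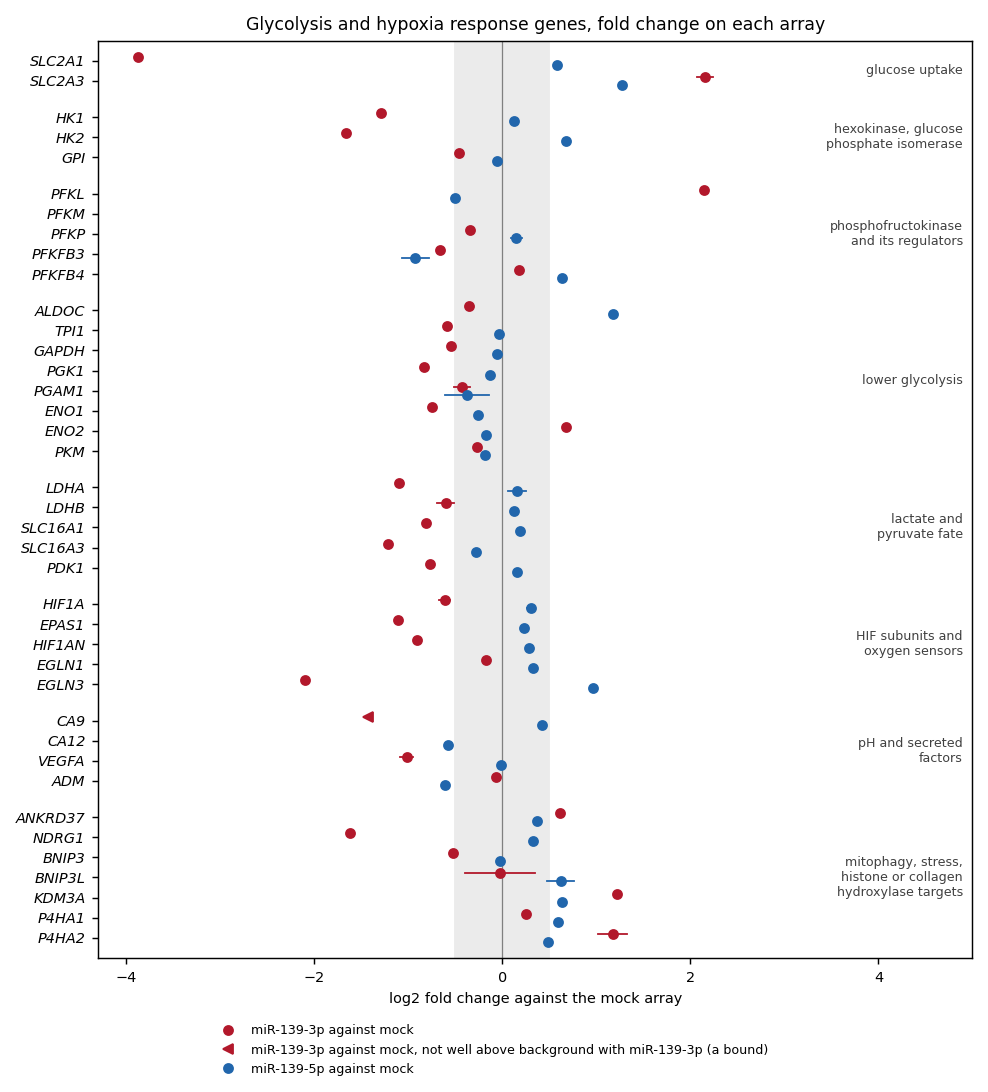
Log2 fold change of each member against mock, for *miR-139-3p* (red) and *miR-139-5p* (blue), grouped by role; lines span the 2 probes of a gene, the triangle is a bound and grey marks changes within 0.5. The red points of lactate and pyruvate fate lie between -1.21 and -0.60 and the blue ones between -0.28 and 0.19, while *PFKM* has no point and *CA12* none for *miR-139-3p*.

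The 2 comparisons share the mock array, so their values were set side by side only. Of the 37 members with both values, *SLC2A1*, *HK2* and *EGLN3* were past the threshold downward with *miR-139-3p* and upward with *miR-139-5p*. With normexp this held for neither *HK2* nor *EGLN3*. *PFKL* showed the opposite order, with a *miR-139-5p* value close to the threshold. *SLC2A3* and *KDM3A* were higher in both, though not for *miR-139-5p* with normexp, and *GPI*, *PFKP*, *PGAM1*, *PKM* and *EGLN1* were past it in neither. The share of all genes with each of these combinations was not counted, so they describe the members only. Of 11 pairs of related members, *SLC2A1* and *SLC2A3*, and *ENO1* and *ENO2*, were past the threshold in opposite directions with *miR-139-3p*, their log2 fold changes being 6.03 and 1.42 apart. With *miR-139-5p* this held for *PFKFB3* and *PFKFB4*.

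*GAPDH* is often taken as an invariant reference, and the study used it as the internal control of its PCR. Its primers are shown because this transcript served as the reference.
GAPDH forward: ttgccatcaatgaccccttc
GAPDH reverse: atcgccccacttgattttgg
On the arrays, *GAPDH* sat in the middle of the members with *miR-139-3p*, at position 20 of 37 from the lowest. With *miR-139-5p* it was at position 12 of 38. Under other scalings of the arrays its value for *miR-139-3p* lay, on the log2 scale, between -0.76 and -0.41, below 0 under each of them but within the threshold when the 75th percentile was taken over detected probes. With its level as the reference, *SLC2A1* with *miR-139-3p* was at -3.33, the median of the members was -0.04, and 9 of the other 36 members were lower and 9 were higher. The median of all genes then moved to 0.51, with 11.0% of them lower and 50.4% higher.

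Scaling to the E1A spike-ins, foreign transcripts added in known amounts, left 25 members lower than mock and 4 higher in the *miR-139-3p* comparison, as did no scaling at all. These settings shifted the median of all genes by -0.21, to -0.26, with 37.8% of all genes lower under both and 19.5% (spike-ins) or 19.6% (no scaling) higher. Of all genes past the threshold, 48.8% were higher as reported, 34.0% with the spike-ins and 34.2% without scaling. The 75th percentile over detected probes shifted the median of all genes by 0.14 and left 16 members lower and 6 higher, where 22.4% of all genes were lower and 31.8% were higher. For *miR-139-5p*, the share higher was 46.6% as reported and 33.9% without scaling. Of the 21 members lower with *miR-139-3p*, 15 kept that call under each of the 5 other scalings of the arrays, and all 21 stayed below 0 in these 5, which leave out the *GAPDH* level as a reference.

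**Figure D4:**
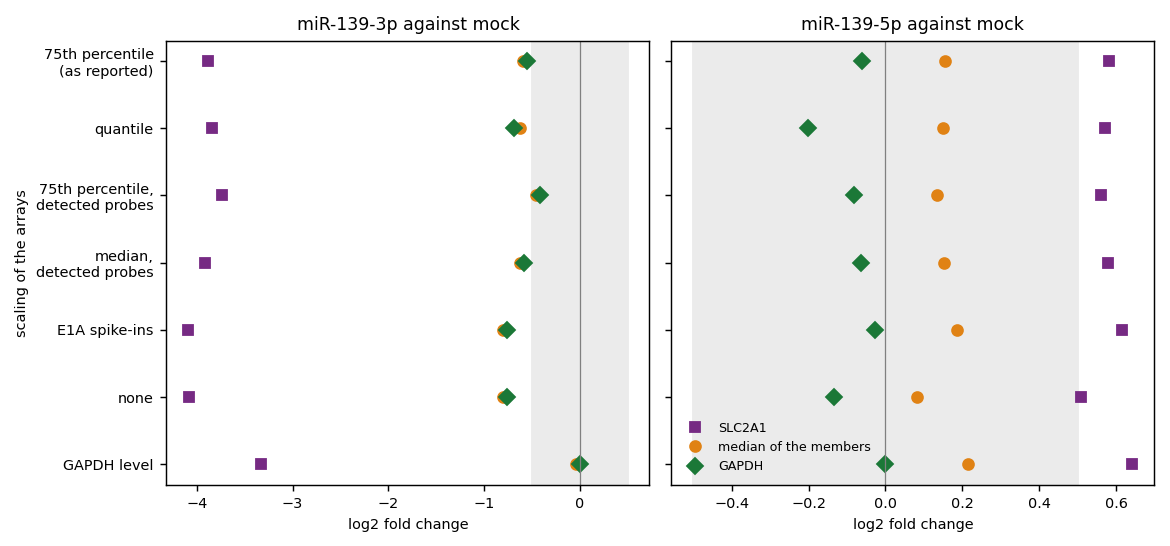
Log2 fold change of *SLC2A1*, *GAPDH* and the median of the members for *miR-139-3p* (left) and *miR-139-5p* (right) against mock, on x axes of different range, under 7 scalings of the arrays; grey marks changes within 0.5. *SLC2A1* stays between -4.09 and -3.33 on the left, and there *GAPDH* and the members' median lie close together under every scaling shown.

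The other genes of the same pathways, 66 in all, were counted in the same way. Of 57 with a value for *miR-139-3p*, 18 were lower and 10 were higher, with a median of -0.16, where 27.9% of all genes were lower and 26.5% were higher. Of 59 with a value for *miR-139-5p*, 4 were lower and 9 were higher, with a median of 0.13, where 12.3% of all genes were lower and 10.7% were higher. *ERO1A* and *NDUFA4L2* had no matched probe. Among the lowest with *miR-139-3p* were *PGD*, an oxidative enzyme of the pentose phosphate pathway, and *PYGB*, the brain-type glycogen phosphorylase. Both *PGD* and *PYGB* were at -1.58.

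Highest among these other genes with *miR-139-3p* was *TIGAR*, a p53 target that lowers fructose 2,6-bisphosphate, with 144 in mock, 154 after *miR-139-5p* and 586 after *miR-139-3p*, a log2 fold change of 2.23. *PGAM2*, the muscle phosphoglycerate mutase, followed at 1.63 on dim signals (10.3 in mock and 27.7 after *miR-139-3p*) and *PDK4*, a pyruvate dehydrogenase kinase, at 1.40. With *miR-139-5p*, the lowest were *ENO3*, the muscle enolase, at -1.06, *ELOB*, a subunit of the VHL ubiquitin ligase, at -0.70 and *HKDC1*, a hexokinase-like gene, at -0.68. The highest were *ANGPTL4*, a secreted lipase inhibitor, at 1.72, *PLOD2*, a collagen lysyl hydroxylase, at 1.095 and *MPC1*, a subunit of the mitochondrial pyruvate carrier, at 0.96. *ANGPTL4* gave 1041 in mock and 3263 with *miR-139-5p*.

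The HIF complex binds DNA at the letters ACGTG or GCGTG, which were searched on both strands of RefSeq promoters, 250 bases before to 50 after each start in GRCh38.p14. ACGTG was held by 23 of 63 promoters of members (36.5%) and by 21.4% of all 35116 promoters. GCGTG was held by 41.3% of the members' promoters and by 36.5% of all promoters. By gene, 19 of 35 members (54.3%) and 24.9% of all 27305 genes had at least 1 promoter with ACGTG. For GCGTG these shares were 60.0% and 40.6%. The members had 63 promoters over 35 genes and all genes had 35116 over 27305. A gene with more promoters has more places to hold the motif, so the shares by gene also reflect this. Several members were listed because they are known HIF targets, so these shares describe the list. *SLC2A3*, *SLC16A1*, *VEGFA*, *NDRG1* and *BNIP3L* were not in the promoter table.

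Examples are shown with ACGTG, or CACGT on the other strand, in capitals. The first 8 genes were lower with *miR-139-3p* and the last 2 were higher, so that both directions can be read beside the same letters. The windows are chr2:74835010-74835038, chr12:6535172-6535200, chr11:18394478-18394506, chr17:82228975-82229003, chr2:172556070-172556089, chr9:35673898-35673926, chr10:6202813-6202841, chr10:131982040-131982068, chr12:6914450-6914478 and chr4:185396686-185396714 in that order, on the plus strand except for *BNIP3*.
HK2: tccggcgagagCACGTGgagagaatcgtg
GAPDH: ctctgcggggtCACGTGtcgcagaggagc
LDHA: cgtgggttcccgCACGTccgccggccccc
SLC16A3: cgtgcgcgggggACGTGccgcgccagcga
PDK1: cgcCACGTccctCACGTacc
CA9: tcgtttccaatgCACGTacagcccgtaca
PFKFB3: accctcctcccCACGTGgaagggggctgg
BNIP3: cgcacgcgccgCACGTGccacacgcaccc
ENO2: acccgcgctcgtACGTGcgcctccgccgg
ANKRD37: cagtgtttgtgtACGTGcggccgtggcgg
Where adjacent letters read CACGTG, both strands hold the motif. Of 17 members with ACGTG and a value, 10 were lower and 2 were higher with *miR-139-3p*, with a median of -0.55. Of 15 members without it, *SLC2A1* among them, 8 were lower and 3 were higher, with a median of -0.60. Of all genes, 27.9% were lower and 26.5% were higher. With *miR-139-5p*, 1 of 17 with the motif was lower and 3 were higher, and 3 of 16 without it were lower and 4 were higher, where 12.3% of all genes were lower and 10.7% were higher.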

How the data were processed

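Total RNA of A549 cells was labelled with Cy3 and hybridised to Agilent single-colour arrays, 1 per group. The authors deposited Feature Extraction 12.1.1.1 output for each array, holding processed signals (intensity values, background-subtracted by the software), and a table of log2 values. Those deposited log2 values matched quantile-normalized log2 processed signals (Pearson's r of at least 0.9999 on each array) and served as an alternative. Spots with an outlier flag of the spot or its background were left out (614 to 1526 of 60901 per array). Signals were divided by the array's 75th percentile over non-control spots (81.0 to 93.6) and log2-transformed. A gene's fold change averaged the probes that were well above background on the 2 arrays compared, or was a bound from the brightest probe where there were none. Of 58201 probes, 31104 had an accession in the RefSeq gene table (GRCh38.p14); levels of different probes were not compared.

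A difference above 0.5 (log2) was counted as lower or higher, without a p-value, since 1 array per group allows no test; the number of arrays limits the precision. Named were *SLC2A1*, *GAPDH*, each member past the threshold against mock, and the 3 lowest and 3 highest other pathway genes measured on both arrays, of which 1 is not reported here. Members and lists were chosen with earlier results of these data known. Whether probes also read close copies of these genes was not tested. The steps were tested on simulated data (Python 3.11.15, numpy 2.4.6, pandas 2.3.3); normexp used limma 3.58.1 in R 4.3.3 with an offset of 50 on median signals. Scaling, background correction, probe choice, flags and threshold were varied in 15 alternatives. Sequences were taken from RefSeq and from the study's primer list.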

Additional observations from a re-analysis of the deposited data

How the results depend on the processing

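No paired analysis was possible because each group had 1 array, and no replicate could be left out for the same reason. With 15 alternatives, 1 of them (ignoring flags of the local background) and the view of genes at or above the 75th percentile of level chosen after seeing the data, the log2 fold change of *SLC2A1* with *miR-139-3p* ranged from -4.09 to -3.21 and that of *GAPDH* from -0.76 to -0.41. Relative to *GAPDH*, 9 members were lower than mock with *miR-139-3p*, their median was -0.0416, *SLC2A1* was at -3.33, *BNIP3* changed sign to 0.0284 as did 8 members within the threshold, and 12 members were lower when *miR-139-3p* was set against *miR-139-5p*. With normexp background correction, whose offset shrinks the fold changes of dim probes, 13 members were lower with *miR-139-3p* (19.0% of all genes), 2 were higher with *miR-139-5p* (3.47%), and *SLC2A1* was at -3.21. The bound for *CA9* was -0.19 there. With a threshold of 1, 10 members were lower with *miR-139-3p* (11.8% of all genes). With *miR-139-5p*, 0 were then lower (2.38%) and 2 were higher (1.92%). Between the 2 miRNAs, 11 were lower and 1 was higher. With spike-in scaling, 3 were higher in that last comparison (the cause was not tested). Relative to *GAPDH* and under these settings, no share of all genes is given for that comparison. Its counts there can therefore not be set against a background. For other members and role medians, 1120 values moved by no more than the spread between probes, 93 moved by more and 1, that of *BNIP3*, turned from past the threshold to the other side of 0. Of the members within the threshold, 9 after *miR-139-3p* and 3 after *miR-139-5p* crossed 0 under at least 1 alternative. Of 27 members past the threshold with *miR-139-3p*, 17 came within it under at least 1 alternative other than the threshold of 1 (10 with normexp), and of 13 with *miR-139-5p*, 8 did (8 with normexp). For the counts in the 4 other lists, 204 stayed within 1.5 times and 36 did not. Dim signals limit *CA9*, *HK2* and *EGLN3* on the *miR-139-3p* array, at 1.01, 6.98 and 6.05.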

Other observations

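Genes that branch off glycolysis into glycogen and the pentose phosphate pathway were measured on the same arrays. Of 10 with a value for *miR-139-3p*, 4 were lower than mock and 0 were higher, with a median of -0.27, and of 11 for *miR-139-5p*, 0 were lower and 2 were higher, with a median of 0.09. Of all genes, *miR-139-3p* left 27.9% lower and 26.5% higher, and *miR-139-5p* left 12.3% lower and 10.7% higher. *PGD*, the second oxidative enzyme of the pentose phosphate pathway, gave 10249.7 in mock, 7392 after *miR-139-5p* and 2965 after *miR-139-3p*. *PYGB* gave 4399, 6451 and 1275 in the same order, at -1.58 after *miR-139-3p* and 0.63 after *miR-139-5p*. *RPIA*, ribose 5-phosphate isomerase, was at -1.08 with *miR-139-3p* and *PGM1*, phosphoglucomutase, at -0.89. *TKT*, transketolase, was at 0.44, within the threshold.

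Among the other genes of the HIF pathway, *VHL*, the substrate receptor of the machinery that degrades HIF alpha, was at 1.28 after *miR-139-3p* and 0.25 after *miR-139-5p*. *ARNT*, the shared beta subunit, was at -0.78 and 0.09, and *HIF3A* at 1.33 and 0.04. The *HIF3A* values rest on dim signals of 1 probe (7.19 in mock and 15.6 after *miR-139-3p*). Its other probe was not well above background on any array. Of the 10 genes in this list, 1 was lower and 2 were higher with *miR-139-3p*, shares below those of all genes. The mitochondrial pyruvate carrier subunits *MPC1* and *MPC2* were at -0.56 (SD 0.64, 2 probes) and -1.25 with *miR-139-3p*, and *BSG*, the chaperone of the lactate transporters, was at -1.08. The genes named here other than *PGD*, *PYGB* and *MPC1* were chosen after their values were seen.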
